A study of Mus musculus with 18 samples.

Results

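Id3-knockout (KO) CD4 T cells were compared with wild-type (WT) CD4 T cells in set 3 of a mouse RNA-seq series, the set that the authors' contrast names tie to the number 24, with no unit given. All 12547 genes of the deposited table were taken as members, in 6 of the 18 libraries: KO replicates 1, 2 and 3 of set 3 against WT replicates 1, 2 and 3 of set 3. The other 12 libraries are KO and WT cells of sets 5 and 6, which the contrast names tie to 96. Per the labels' protocols, all libraries came from naive CD4 T cells activated with microbeads carrying antibodies to CD3 and CD28, in a Th1 medium of IMDM with serum, IL2, IL12 and an anti-IL4 antibody. Both genotypes therefore share this activation and cytokine treatment. The labels do not give the strain, sex or age of the mice, how the KO allele was made, or whether the 3 replicates of a group came from different mice. The p-values below therefore rest on a spread between libraries that may be technical. In the main fit this spread is pooled over all 18 libraries, sets 5 and 6 included.

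Id3 is a helix-loop-helix protein without a basic region. It pairs with E proteins (Tcf3, Tcf12 and Tcf4), transcription factors that bind the E-box sequence CANNTG, and keeps them from DNA. Signals through the T cell receptor raise Id3, and together with Id2 it sets how strongly E proteins act during T cell development and T cell responses.

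The targeted gene was checked first. Id3 had deposited log2 values of 2.15, 3.35 and 3.64 in KO libraries, against 10.08, 9.74 and 9.6 in WT libraries (here and below in the order of replicates 1, 2 and 3). The 3 KO values lay far below all WT values, with a difference of -6.76 ± 0.89 (KO minus WT on the log2 scale, ± SE of the limma fit, as in all differences below; adjusted p = 0.000188). Markers of CD4 T cells were present in every library: the summed level of 12 identity genes was 16.39 to 16.5 in KO libraries and 16.68 to 16.78 in WT libraries, and the 2 CD8 genes summed to 9.7 to 10.11 in KO libraries and 9.93 to 10.2 in WT libraries (log2 of the sum). KO replicate 2 stood nearer to the WT libraries than the other KO libraries did. Its Spearman correlation across genes was 0.983 to 0.990 with the WT libraries and 0.986 to 0.988 with the other KO libraries, whereas KO replicate 1 had 0.970 to 0.976 with the WT libraries. The lowest value of a library, which genes with no signal take, lay between 1.0 and 1.11, and read depth is unknown because no counts are used here.

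More genes rose than fell past the test, and the rises were larger. With limma and Benjamini-Hochberg adjusted p under 0.05 over all 12547 genes, 1427 genes (11.4%) differed, of which 868 (6.92%) were higher and 559 (4.46%) were lower in KO cells. The counts of gene lists below are to be read beside these 6.92% and 4.46%. The median difference was 1.26 among the genes that rose and -0.47 among those that fell, beside -0.07 over all genes. A log2 difference of 1 or more was reached by 519 risen genes (4.14% of all genes) and 88 fallen ones (0.701% of all genes), and a difference of 3 or more by 82 risen and 4 fallen genes. Values of the genotypes did not overlap in 3757 genes (29.9%), 1321 of them among the 1427. By that measure the order is turned round, with 1506 genes (12%) higher and 2251 (17.9%) lower in KO cells. Within a genotype 97.0% to 98.0% of the sorted values of the libraries are equal. Library medians were 9.18 in KO and 9.21 in WT cells, and this offset was not removed for the overlap count. The part of this scaling in the overlap count was not tested. The count of genes past the test rests on single libraries. Without KO replicate 1, 454 genes rose and 212 fell, and without KO replicate 2, 1098 rose and 816 fell. Without KO replicate 3, 564 rose and 354 fell, without WT replicate 1, 567 rose and 305 fell, and without WT replicate 3, 675 rose and 341 fell. KO replicate 2 was the lowest KO library in 663 of the 868 risen genes. In each of the 6 fits that left out 1 library, 406 risen genes (3.24% of all genes) and 171 fallen ones (1.36% of all genes) passed, and most genes named below are among them. A fit of the 6 libraries of set 3 alone called 265 higher and 114 lower, and limma's test for a fold of at least 1.2 called 410 (3.27%) higher and 82 (0.654%) lower. Genes below that lost their call in one of these are named as such, most with the adjusted p of that fit.

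The largest rises without overlap were those of Sprr2a2, of the cornified envelope, by 7.29 ± 0.88 (adjusted p = 9.33e-05), and Smr3a, a salivary gene, by 6.34 ± 0.76 (adjusted p = 8.91e-05). Both values are uncertain, since 97.8% and 45.0% of their 31-base words also occur in other genes. They were followed by the mast cell tryptase Tpsb2 (5.6 ± 0.42, adjusted p = 1.03e-06), the cytokine Il9 (5.52 ± 1.09, adjusted p = 0.00375) and the mast cell protease Cma1 (5.39 ± 0.78, adjusted p = 0.000411). Mean levels in KO and WT cells were 9.37 and 2.08 for Sprr2a2, 8.23 and 1.89 for Smr3a, 6.92 and 1.32 for Tpsb2, and 7.2 and 1.81 for Cma1. For each of Sprr2a2, Smr3a, Tpsb2 and Cma1, 2 WT libraries stood at their lowest value. The size of their rises depends on that floor. Next came the eosinophil attractant Ccl24 (5.26 ± 1.11, adjusted p = 0.00607) and Bpifa2, a salivary protein (5.14 ± 0.76, adjusted p = 0.000463). Among the highest levels, the granzymes Gzma and Gzmb of cytotoxic granules rose by 3.19 ± 0.55 and 1.87 ± 0.26 (adjusted p = 0.00155 and 0.000317).

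**Figure D1:**
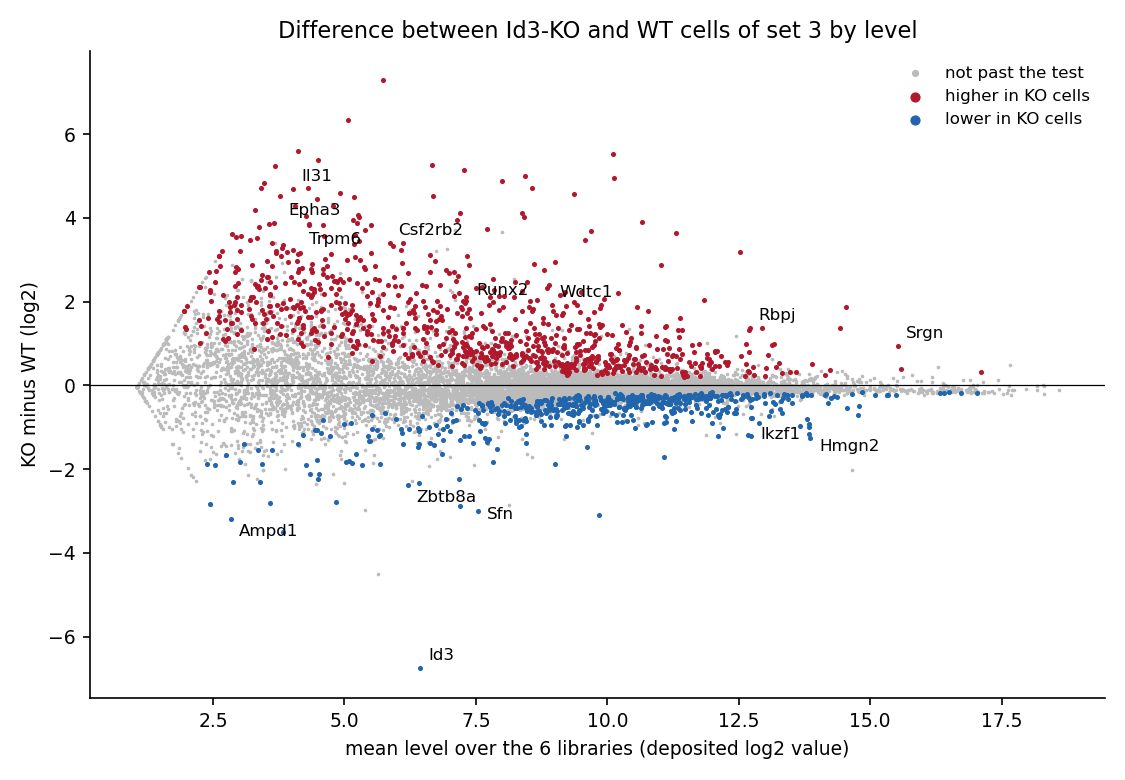
Difference between KO and WT cells of set 3 (KO minus WT, log2) against the mean deposited log2 value over the 6 libraries, 1 point a gene, red for genes higher and blue for genes lower in KO cells at adjusted p under 0.05. The 868 red points reach far higher than the 559 blue points reach low, apart from Id3 at -6.76; levels are not per transcript length and so do not rank genes.

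Windows upstream of genes that changed were searched for E-boxes, the sites that E proteins bind. The letters CAGCTG, which read the same on both strands, and CACCTG, counted on either strand (CAGGTG on the other), were looked for in the 250 bases before the start of each gene in RefSeq (GRCm38.p6); matches of the 2 motifs cannot overlap. CAGCTG occurred before 12.5% of 680 risen genes and 12.3% of 456 fallen genes that matched a promoter by symbol, beside 11.2% of 10003 measured genes and 12.8% of all 27025 promoters. CACCTG occurred before 15.4% of the risen and 16.0% of the fallen genes, beside 15.3% of the measured genes and 17.1% of all promoters. These shares differ little, and a match is a description of the letters only. Windows of 3 genes described below are printed 5′ to 3′ on the strand of the gene, because each holds a match; they were chosen after their values were seen, and capitals mark the matches of these 2 motifs; other letters of the form CANNTG are left in lower case. Srgn lies at chr10:62527446-62527695 (minus strand), Fundc2 at chrX:75382149-75382398 (plus strand) and Cd247 at chr1:165788431-165788680 (plus strand).
Srgn: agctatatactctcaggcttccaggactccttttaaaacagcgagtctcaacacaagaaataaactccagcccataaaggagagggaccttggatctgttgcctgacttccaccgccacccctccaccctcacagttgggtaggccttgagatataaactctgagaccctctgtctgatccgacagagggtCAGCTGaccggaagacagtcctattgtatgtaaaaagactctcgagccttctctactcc
Fundc2: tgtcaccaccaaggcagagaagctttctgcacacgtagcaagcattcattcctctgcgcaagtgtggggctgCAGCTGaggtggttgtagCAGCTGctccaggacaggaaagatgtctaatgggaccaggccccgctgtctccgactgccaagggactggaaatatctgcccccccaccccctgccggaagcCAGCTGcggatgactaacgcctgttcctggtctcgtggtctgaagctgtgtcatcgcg
Cd247: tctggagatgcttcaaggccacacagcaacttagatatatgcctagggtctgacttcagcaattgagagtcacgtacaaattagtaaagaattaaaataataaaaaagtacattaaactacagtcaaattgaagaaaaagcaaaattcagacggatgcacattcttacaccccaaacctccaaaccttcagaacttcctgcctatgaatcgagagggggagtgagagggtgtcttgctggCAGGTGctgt
Srgn, the core protein of the proteoglycans that pack secretory granules, had 16.31, 15.55 and 16.15 in KO cells, against 14.86, 15.22 and 15.11 in WT cells. All 3 KO values were higher, by 0.94 ± 0.19 (adjusted p = 0.00409, but 0.0572 with set 3 alone). Fundc2, a protein of the outer mitochondrial membrane whose window holds 3 matches, had 10.63, 10.86 and 10.81 in KO cells, against 11.38, 11.25 and 11.26 in WT cells, a fall of 0.53 ± 0.07 on the log2 scale (adjusted p = 0.000186). Cd247 is described with the T cell receptor below.

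Several of the strongest calls lay on the chromosome of Id3, close to it in gene order. Wdtc1, a component of ubiquitin ligase complexes, had 9.84, 9.79 and 10.08 in KO cells, against 7.88, 7.92 and 8.13 in WT cells. Its difference of 1.92 ± 0.11 (adjusted p = 2.01e-08) was the third smallest p of all genes. Sfn, the 14-3-3 sigma protein of epithelial cells, had 5.92, 6.24 and 6 in KO cells, against 9.21, 8.85 and 9.07 in WT cells, and fell by 2.99 ± 0.14 (adjusted p = 1.73e-09). The values of both genes were tight within each genotype and far apart between them. For Sfn, 26.8% of its words occur in other genes, so its value is uncertain. Ubxn11 was higher by 1.76 ± 0.2 (adjusted p = 5.62e-05). Cd52, a short glycoprotein of the lymphocyte surface, had 14.48, 14.56 and 14.24 in KO cells, against 15.1, 15.02 and 15.26 in WT cells, a fall of 0.7 ± 0.09 (adjusted p = 0.000186). Zbtb8a, a zinc finger gene further along, had 4.4, 5.38 and 5.27 in KO cells, against 7.56, 7.37 and 7.29 in WT cells, a difference of -2.39 ± 0.27 (adjusted p = 5.62e-05).

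In the RefSeq gene order, 12359 measured genes have a position, 749 of them on chromosome 4 with Id3. Sfn lay 48 measured genes before Id3, Wdtc1 53, Cd52 38, Ubxn11 37 and Zbtb8a 106. Among the 50 nearest measured genes on each side, 19 of 100 (19.0%) passed the test, 8 higher and 11 lower, and 8 (8.0%) had an adjusted p under 0.001, against 1.48% of all genes other than Id3. Among genes 51 to 150 places away on each side, 23 of 200 (11.5%) passed. In the whole chromosome outside the nearest 50 on each side, these 200 included, 67 of 648 (10.3%) passed. Both shares are near the 11.4% of all genes. The window was chosen after these values were seen and carries no test; with 25 genes on each side the share was 22% and with 100 it was 14.5%. After each library was centred on its median, Wdtc1 differed by 1.95, 1.68 and 1.55 in sets 3, 5 and 6. The same differences were 1.79, 1.3 and 1.9 for Ubxn11, -2.96, -1.69 and -1.93 for Sfn, and -0.6, -1.09 and -0.64 for Clic4, 15 genes before Id3. Other genes nearby moved in set 3 and little later: E2f2, the measured gene next to Id3, had a difference of 0.68 in set 3 (adjusted p = 0.0615 with set 3 alone), -0.24 in set 5 and 0.11 in set 6, and Cd52 had -0.68, -0.21 and -0.2. Since the labels do not give the strain or how the allele was made, whether the DNA around Id3 is otherwise the same in KO and WT mice cannot be told from them.

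**Figure D2:**
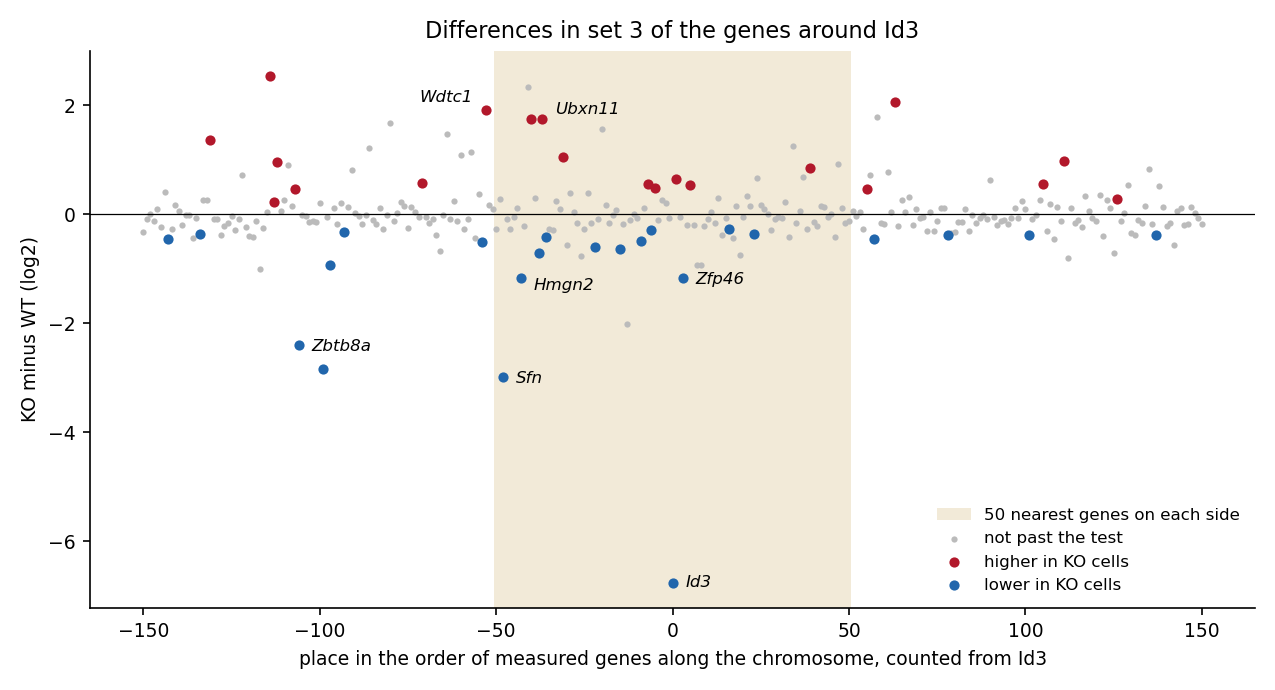
KO minus WT difference in set 3 (log2) of the measured genes around Id3, in their order along the chromosome and counted from Id3 at 0, with coloured points for genes past the test. The shaded band holds the 50 nearest genes on each side, of which 19 passed the test; Wdtc1 and Ubxn11 stand high and Sfn, Hmgn2 and Zbtb8a low on one side of Id3.

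A pair of genes that share sequence also had tight differences. Hmgn2, which encodes a nucleosome-binding protein, lay 43 genes before Id3 and had 13.35, 13.06 and 13.34 in KO cells, against 14.39, 14.41 and 14.44 in WT cells (difference -1.16 ± 0.09, adjusted p = 2.45e-06). Gm10282, a retrogene on chromosome 8 and the gene with the smallest p of all (difference 3.91 ± 0.14, adjusted p = 8.34e-11), had 12.72, 12.41 and 12.7 in KO cells, against 8.59, 8.74 and 8.78 in WT cells. Of its 31-base words in the GENCODE M21 transcripts, 83.6% also occur in Hmgn2, and 28.5% of those of Hmgn2 occur in it, so reads may be split between them and both values are uncertain. The log2 of their summed values was 13.97 ± 0.17 in KO cells and 14.44 ± 0.03 in WT cells (mean ± SD, n = 3 each), a difference of -0.47. The pair differed in the same way in the later sets, with centred differences of 3.94, 3.74 and 4.1 in sets 3, 5 and 6 for Gm10282 and -1.14, -1.35 and -1.24 for Hmgn2.

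Secreted factors beyond the signature helper cytokines rose widely. Of 39 measured growth factors and other cytokines, 19 (48.7%) were higher and 1 was lower, beside 6.92% and 4.46% of all genes. Their median difference was 1.35. Il31, an itch-inducing cytokine of T cells, had 6.44, 5.6 and 7.07 in KO cells, against 1.11, 1.05 and 2.88 in WT cells, where it was at or near the lowest value; its difference was 4.69 ± 0.53 (adjusted p = 5.62e-05). Il24, of the IL10 family, had 11.09, 9.25 and 11.13 in KO cells, against 7.44, 7.54 and 7.63 in WT cells, 2.95 ± 0.36 higher (adjusted p = 9.75e-05). Il21, which acts on B cells and T cells, had 12.9, 12.55 and 13.16 in KO cells, against 10, 11.24 and 11.21 in WT cells, a difference of 2.05 ± 0.44 (adjusted p = 0.00699). No KO value of these 3 genes fell inside the WT range, and KO replicate 2 was the lowest KO library in each.

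Growth factors of other tissues were among those that rose. Bmp7, a bone morphogenetic protein, had 8.47, 8.12 and 8.25 in KO cells, against 6.48, 6.37 and 6.52 in WT cells (difference 1.83 ± 0.21, adjusted p = 7.83e-05). Hbegf, a ligand of the EGF receptor, had 7.94, 7.19 and 7.86 in KO cells, against 5.96, 6.01 and 6.07 in WT cells (difference 1.65 ± 0.2, adjusted p = 9.75e-05). The 3 libraries of each genotype lay close together and the genotypes far apart. Il16, a chemoattractant for CD4 cells, was the member that fell: it had 9.8, 9.8 and 9.85 in KO cells, against 10.52, 10.4 and 10.65 in WT cells, a difference of -0.71 ± 0.08 (adjusted p = 5.67e-05). Il10 rose by 2.91 ± 0.47, Il1b by 3.39 ± 0.64 and Il27 by 3.27 ± 0.67 (adjusted p = 0.000896, 0.00297 and 0.00478), but with set 3 alone their adjusted p was 0.0679, 0.078 and 0.0792. The count of rises in the list was 11 without KO replicate 1, 11 without WT replicate 1 and 9 with set 3 alone.

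Chemokines also rose. Of 20 measured chemokine ligands, 7 (35.0%) were higher and none was lower, beside 6.92% and 4.46% of all genes. Their median difference was 1.71. Ccl5, a chemokine of effector T cells, had 11, 9.7 and 11.17 in KO cells, against 8.21, 8.55 and 8.37 in WT cells (difference 2.24 ± 0.29, adjusted p = 0.000183). Cxcl2, a neutrophil attractant, was higher by 3.96 ± 0.89 (adjusted p = 0.00866), though not with set 3 alone (adjusted p = 0.0772). The number of rises was 3 without KO replicate 1 and 4 each without WT replicate 1 and WT replicate 3.

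Receptors for chemoattractants were often higher, while the receptor for lymph node entry was lower. Of 31 measured receptors, 12 (38.7%) were higher and 1 was lower, beside 6.92% and 4.46% of all genes. Their median difference was 1.06 (6 rises with set 3 alone). Ccr2, a receptor of cells that enter inflamed tissue, had 8.92, 7.64 and 8.87 in KO cells, against 5.28, 5.98 and 6.32 in WT cells (difference 2.61 ± 0.36, adjusted p = 0.000298). Cxcr6, which reads Cxcl16 in tissue, had 12.01, 10.48 and 11.43 in KO cells, against 7.43, 8.26 and 7.79 in WT cells (difference 3.48 ± 0.29, adjusted p = 3.3e-06). Both receptors were separated from WT in all 3 KO libraries, least in KO replicate 2. Ccr4, common on helper cells that home to skin, was higher by 1.06 ± 0.17 (adjusted p = 0.00102), and Cxcr3, the receptor of the interferon-induced chemokines, by 1.38 ± 0.2 (adjusted p = 0.000453). Ccr7, which guides T cells to lymph nodes, had 13.04, 13.7 and 13.31 in KO cells, against 14.5, 14.23 and 14.3 in WT cells, and was lower by 1 log2 unit (adjusted p = 0.0006).

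Receptors for leukotrienes and thrombin and an enzyme of prostaglandin synthesis were also higher. Cysltr2, a receptor for cysteinyl leukotrienes, had 10.46, 10.11 and 10.51 in KO cells, against 7.97, 8.98 and 8.88 in WT cells (difference 1.75 ± 0.27, adjusted p = 0.000673). Cysltr1, the other such receptor, was higher by 3.23 ± 0.47 (adjusted p = 0.000405), though with set 3 alone its adjusted p was 0.0583. F2r, the thrombin receptor PAR1, had 11.19, 10.45 and 10.9 in KO cells, against 8.51, 9.07 and 9.22 in WT cells (difference 1.91 ± 0.18, adjusted p = 8.33e-06). The genotypes did not overlap in these receptors. Of 20 measured genes of prostaglandin and leukotriene synthesis and sensing, 2 (10.0%) rose and 2 (10.0%) fell, beside 6.92% and 4.46% of all genes. Ptgs2, the inducible cyclooxygenase, had 6.21, 5.04 and 5.53 in KO cells, against 3.47, 2.6 and 1.78 in WT cells, 2.98 ± 0.5 higher (adjusted p = 0.00122). The constitutive enzyme Ptgs1 was higher by 3.14 ± 0.75 (adjusted p = 0.0127), but not without KO replicate 1 (adjusted p = 0.0569). The falls numbered 0 with set 3 alone and without KO replicate 3, and 1 each without KO replicate 1, WT replicate 2 and WT replicate 3.

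Cytokine receptors changed in both directions. Of 50 measured receptors, 8 (16.0%) were higher and 4 (8.0%) were lower, beside 6.92% and 4.46% of all genes, with a median difference of 0.11. Csf2rb2, a receptor chain for IL3 in mice, had 7.98, 7.01 and 7.68 in KO cells, against 4.02, 4.43 and 4.04 in WT cells (difference 3.39 ± 0.39, adjusted p = 5.95e-05). Csf2rb, the chain shared by the receptors for IL3, IL5 and GM-CSF, was higher by 3.41 ± 0.75 (adjusted p = 0.00793); 30.1% of the 31-base words of Csf2rb2 and 19.6% of those of Csf2rb also occur in other genes, above all in each other, so the split between them is uncertain. Il1rl1, the receptor for the alarmin IL33, had 8.82, 7.89 and 8.22 in KO cells, against 5.13, 6.26 and 5.27 in WT cells (difference 2.75 ± 0.48, adjusted p = 0.00157). These chains were higher in every KO library than in any WT library. Il6ra, the binding chain of the IL6 receptor, had 8.17, 8.74 and 8.47 in KO cells, against 9.48, 9.32 and 9.43 in WT cells (difference -0.95 ± 0.14, adjusted p = 0.000399). Gpr83, an orphan receptor best known from regulatory T cells, had 7, 6.9 and 7.55 in KO cells, against 8.52, 8.42 and 9.03 in WT cells (difference -1.51 ± 0.23, adjusted p = 0.000513). Without single libraries the list held 4 rises and 1 fall (KO replicate 1), 5 rises and 5 falls (KO replicate 3), 5 rises and 1 fall (WT replicate 1), 8 rises and 1 fall (WT replicate 3), or 12 rises and 4 falls (KO replicate 2).

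**Figure D3:**
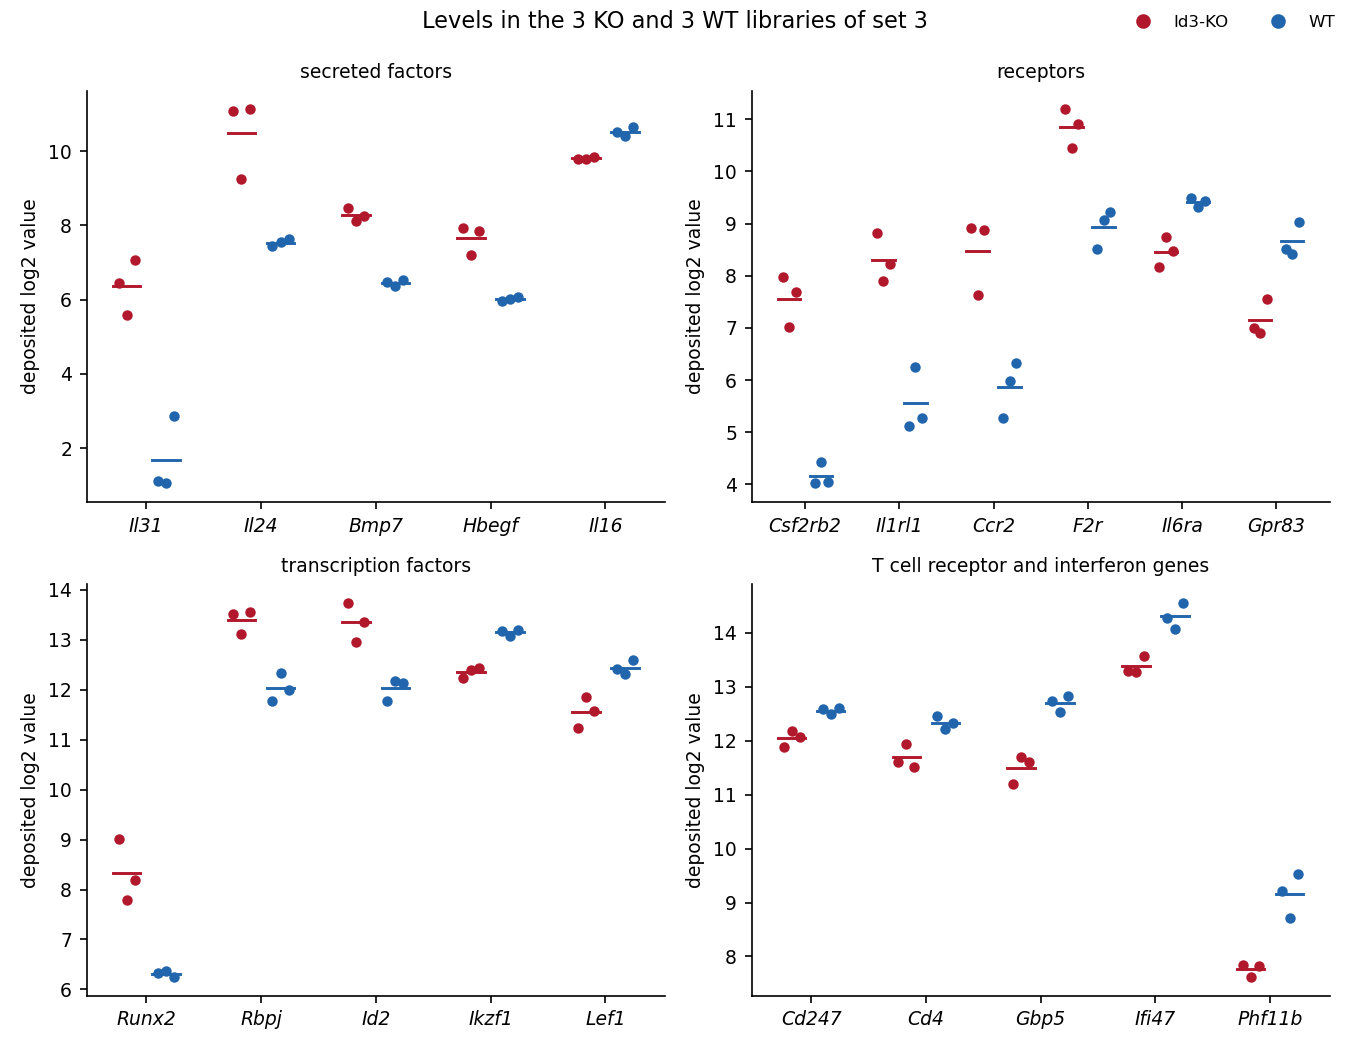
Deposited log2 values of secreted factors, receptors, transcription factors, and T cell receptor and interferon genes in the 3 KO libraries (red, left of each pair) and 3 WT libraries (blue, right) of set 3; points are libraries in the order of replicates 1 to 3 and lines are group means. KO and WT points do not overlap in any gene shown, which was a condition for choosing genes by rule. For Il31 they lie at 5.6 to 7.07 in KO cells and 1.05 to 2.88 in WT cells.

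Among transcription factors of lymphocytes, 28 of 126 measured (22.2%) rose and 11 (8.73%), Id3 included, fell, beside 6.92% and 4.46% of all genes. Their median difference was 0.12. Zbtb16 (PLZF), the factor of innate-like T cells, had 8.19, 6.52 and 7.16 in KO cells, against 3.24, 3.65 and 2.93 in WT cells (difference 4.02 ± 0.56, adjusted p = 0.000282). Runx2 had 9.01, 7.8 and 8.19 in KO cells, against 6.33, 6.37 and 6.25 in WT cells (difference 2.02 ± 0.3, adjusted p = 0.000498). Rbpj, the DNA-binding partner of Notch, had 13.52, 13.11 and 13.55 in KO cells, against 11.77, 12.34 and 11.99 in WT cells (difference 1.36 ± 0.14, adjusted p = 2e-05); 11.4% of its words occur in other genes, so part of its reads is uncertain. All 3 genes were separated between the genotypes. Id2, the close relative of Id3 that also holds E proteins off DNA, had 13.74, 12.95 and 13.35 in KO cells, against 11.77, 12.18 and 12.14 in WT cells (difference 1.32 ± 0.16, adjusted p = 8.91e-05). Of the E proteins, Tcf3 had 11.15, 11.22 and 11.2 in KO cells, against 11.47, 11.42 and 11.64 in WT cells, a small fall of 0.32 ± 0.07 (adjusted p = 0.00812, but 0.0727 with set 3 alone). Tcf12 differed by -0.26 ± 0.08 (adjusted p = 0.0482, but 0.147 with set 3 alone, 0.0765 after median centring and up to 0.201 with a library left out), and Tcf4 by 0.18 ± 0.33 (adjusted p = 0.749). Neither Tcf3 nor Tcf12 passed the test for a fold of at least 1.2. Zeb2, a repressor known from terminally differentiated effector T cells, was higher by 1.79 ± 0.35 (adjusted p = 0.00341) and Crem, a cAMP-responsive factor, by 0.98 ± 0.2 (adjusted p = 0.00476). Maf, Epas1 and Rora were higher by 2.25 ± 0.39, 2.69 ± 0.45 and 1.6 ± 0.3 (adjusted p = 0.00153, 0.00127 and 0.00252), and with set 3 alone their adjusted p was 0.052, 0.0799 and 0.0572.

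The factors that fell include regulators of the resting T cell. Ikzf1 (Ikaros), a repressor active through lymphocyte development, had 12.24, 12.39 and 12.43 in KO cells, against 13.18, 13.07 and 13.19 in WT cells (difference -0.79 ± 0.08, adjusted p = 1.09e-05). Lef1, a partner of Tcf7 in naive T cells, had 11.23, 11.85 and 11.58 in KO cells, against 12.42, 12.32 and 12.59 in WT cells (difference -0.89 ± 0.13, adjusted p = 0.000417). In both genes each KO library lay below each WT library. Trib2, a pseudokinase of naive T cells, fell with them, with 9.7, 10.43 and 10.52 in KO cells, against 11.76, 11.59 and 12.4 in WT cells (difference -1.7 ± 0.23, adjusted p = 0.00022). For the whole list of factors, 15 rose and 5 fell without KO replicate 1, 18 rose and 6 fell without KO replicate 3, 15 rose and 7 fell without WT replicate 1, and 10 rose and 3 fell with set 3 alone.

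Components of the T cell receptor were modestly lower. Of 12 measured CD4 T cell identity genes, 6 were lower and 1, Thy1, was higher, beside 4.46% and 6.92% of all genes. Their median difference was -0.34. Cd247, the zeta chain that carries the signal of the receptor, had 11.89, 12.19 and 12.07 in KO cells, against 12.58, 12.5 and 12.6 in WT cells (difference -0.51 ± 0.08, adjusted p = 0.000808). The coreceptor Cd4 had 11.61, 11.94 and 11.52 in KO cells, against 12.46, 12.21 and 12.33 in WT cells (difference -0.64 ± 0.12, adjusted p = 0.00251). Cd3g, another receptor chain, differed by -0.38 ± 0.07 (adjusted p = 0.00311), and the phosphatase Ptprc (CD45) by -0.55 ± 0.09 (adjusted p = 0.00124). These are falls of less than 1 log2 unit without overlap between genotypes in Cd247 and Cd4. Against a minimum fold of 1.2, none of the 6 passed (adjusted p = 0.0783 for Cd247, 0.0648 for Cd4, 0.521 for Cd3g and 0.0745 for Ptprc), and 3 of the 6 passed with set 3 alone (Ptprc did not, adjusted p = 0.0518). Thy1, a surface glycoprotein of T cells, was higher by 1 ± 0.19 (adjusted p = 0.00278), though not with set 3 alone (adjusted p = 0.0959). In these bulk libraries, fewer cells that make a transcript and less of it per cell cannot be told apart.

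Genes of signalling feedback moved both ways in similar numbers, with 7 of 60 (11.7%) higher and 6 (10.0%) lower and a median difference of 0.01. Of all genes, 6.92% were higher and 4.46% were lower. Most of the calls in the feedback list rest on single libraries: 1 rose and 2 fell without KO replicate 1, 3 rose and 4 fell without KO replicate 3, 2 rose and 3 fell without WT replicate 1, 4 rose and 5 fell without WT replicate 2, and 4 rose and none fell with set 3 alone. Tnfaip3 (A20), an inhibitor of NF-kB signalling, had 12.18, 11.51 and 12.16 in KO cells, against 10.59, 10.87 and 10.91 in WT cells (difference 1.15 ± 0.17, adjusted p = 0.000458). Kcnn4, the calcium-activated potassium channel that sustains calcium entry in activated T cells, had 10.52, 11.01 and 10.52 in KO cells, against 11.56, 11.36 and 11.73 in WT cells (difference -0.87 ± 0.13, adjusted p = 0.000433). Fasl, the death ligand, had 9.29, 8.88 and 9.63 in KO cells, against 7.99, 7.91 and 7.42 in WT cells, 1.5 ± 0.23 higher (adjusted p = 0.000725). Entpd1 and Ampd1, given next, belong to another list, of 51 measured genes of purine and adenosine handling. In that list 4 (7.84%) rose and 3 (5.88%) fell, near the shares of all genes, and the median difference was -0.02. With set 3 alone 2 of them rose and 1 fell. Entpd1 (CD39), which degrades extracellular ATP, had 8.29, 7.7 and 7.97 in KO cells, against 4.59, 5.73 and 5.49 in WT cells, 2.72 ± 0.25 higher (adjusted p = 7.12e-06). Ampd1, which deaminates AMP, had 1.65, 1.07 and 1 in KO cells, against 3.81, 4.65 and 4.85 in WT cells; in KO cells it was at or near the lowest value, so its fitted difference of -3.19 ± 0.43 (adjusted p = 0.000243) depends on that floor.

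Interferon-stimulated genes fell more often than they rose. Of 56 measured interferon-stimulated genes, 13 (23.2%) fell and 6 (10.7%) rose, beside 4.46% and 6.92% of all genes. Their median difference was -0.25. The falls given here include guanylate-binding proteins and immunity-related GTPases, which act against intracellular pathogens; they were singled out after their values were seen. Gbp5 had 11.19, 11.7 and 11.6 in KO cells, against 12.74, 12.53 and 12.83 in WT cells (difference -1.2 ± 0.12, adjusted p = 1.35e-05). Gbp2 had 12.9, 13.36 and 13.41 in KO cells, against 14.41, 14.22 and 14.83 in WT cells (difference -1.26 ± 0.19, adjusted p = 0.000513). Ifi47, an immunity-related GTPase, had 13.29, 13.27 and 13.58 in KO cells, against 14.28, 14.08 and 14.56 in WT cells (difference -0.93 ± 0.14, adjusted p = 0.000452). Every KO library lay below every WT library in these 3 genes. Gbp6 was lower by 0.86 log2 units (SE 0.14, adjusted p = 0.00117) and Igtp by 0.8 (SE 0.13, adjusted p = 0.00115), with 15.9% of the words of Igtp shared with other genes. Phf11b fell by 1.38 ± 0.14 (adjusted p = 2.18e-05), but 62.9% of its words occur in other genes, most in Phf11a, and its value is uncertain.

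Others of the list rose. Ifi27 was higher by 1.23 ± 0.26 (adjusted p = 0.00551), though not with set 3 alone (adjusted p = 0.123), and Oas1a by 1.49 ± 0.24 (adjusted p = 0.000932), with 0.0565 with set 3 alone and 68.8% of its words shared with other genes. The list held no rise and 8 falls with set 3 alone, and 2 rises and 12 falls each without KO replicate 3 and WT replicate 1, 3 rises and 10 falls without KO replicate 1, and 3 rises and 14 falls without WT replicate 2. The gene of the interferon itself was not lower: Ifng had 15.62, 14.76 and 14.94 in KO cells, against 13.65, 13.96 and 13.63 in WT cells (difference 1.36 ± 0.32, adjusted p = 0.0108, but 0.0722 without KO replicate 1), with 22.6% of its words shared with other genes. The summed level of the interferon-stimulated list was 17.35 to 17.53 in KO libraries and 17.67 to 18.08 in WT libraries.

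Cell cycle genes split by phase. Of 83 measured genes of mitosis, 53 (63.9%) were higher and none was lower, with a median difference of 0.62, whereas of 63 genes of DNA replication and repair, 5 (7.94%) were higher and 1 was lower, with a median of -0.01. Over all genes 6.92% were higher and 4.46% were lower, so the rises among replication genes lay near the share of all genes. The replication count was also unsteady, with 1 rise each without KO replicate 1 and KO replicate 3, 2 each without WT replicate 1 and WT replicate 3, 8 without KO replicate 2, and none with set 3 alone. The mitosis count rests on KO replicates 1 and 3. The summed mitosis level was 17.14, 16.6 and 17.1 in KO libraries, against 16.47, 16.59 and 16.43 in WT libraries, so KO replicate 2 was level with the highest WT library. Mki67, a marker of cycling cells, had 11.06, 9.98 and 11.04 in KO cells, against 9.33, 9.7 and 9.45 in WT cells (difference 1.2 ± 0.2, adjusted p = 0.00127, but 0.0759 with set 3 alone). Rises in the mitosis list numbered 22 without KO replicate 1, 28 without KO replicate 3, 35 without WT replicate 1, 34 without WT replicate 3, 69 without KO replicate 2 and 0 in limma on set 3 alone. In that last fit no mitosis gene was lower either.

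Inhibitors of cyclin-dependent kinases rose together with an S-phase cyclin. Of 33 measured cell cycle regulators, 10 (30.3%) were higher and none was lower, with a median difference of 0.14. Cdkn1a (p21) had 10.89, 10.62 and 10.2 in KO cells, against 9.31, 9.26 and 8.73 in WT cells (difference 1.47 ± 0.17, adjusted p = 5.67e-05). Cdkn2a, which encodes p16 and p19Arf, had 7.17, 5.77 and 5.83 in KO cells, against 1.11, 3.53 and 2.54 in WT cells (difference 3.86 ± 0.44, adjusted p = 5.92e-05). Ccne1, the cyclin of S-phase entry, had 11.22, 10.9 and 11.04 in KO cells, against 10.29, 10.53 and 10.19 in WT cells (difference 0.72 ± 0.13, adjusted p = 0.00264). KO and WT values did not overlap in these genes. Cdkn2c (p18) was higher by 0.7 ± 0.12 (adjusted p = 0.00175), with 0.0706 with set 3 alone, and 3 members of the list rose in that fit.

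**Figure D4:**
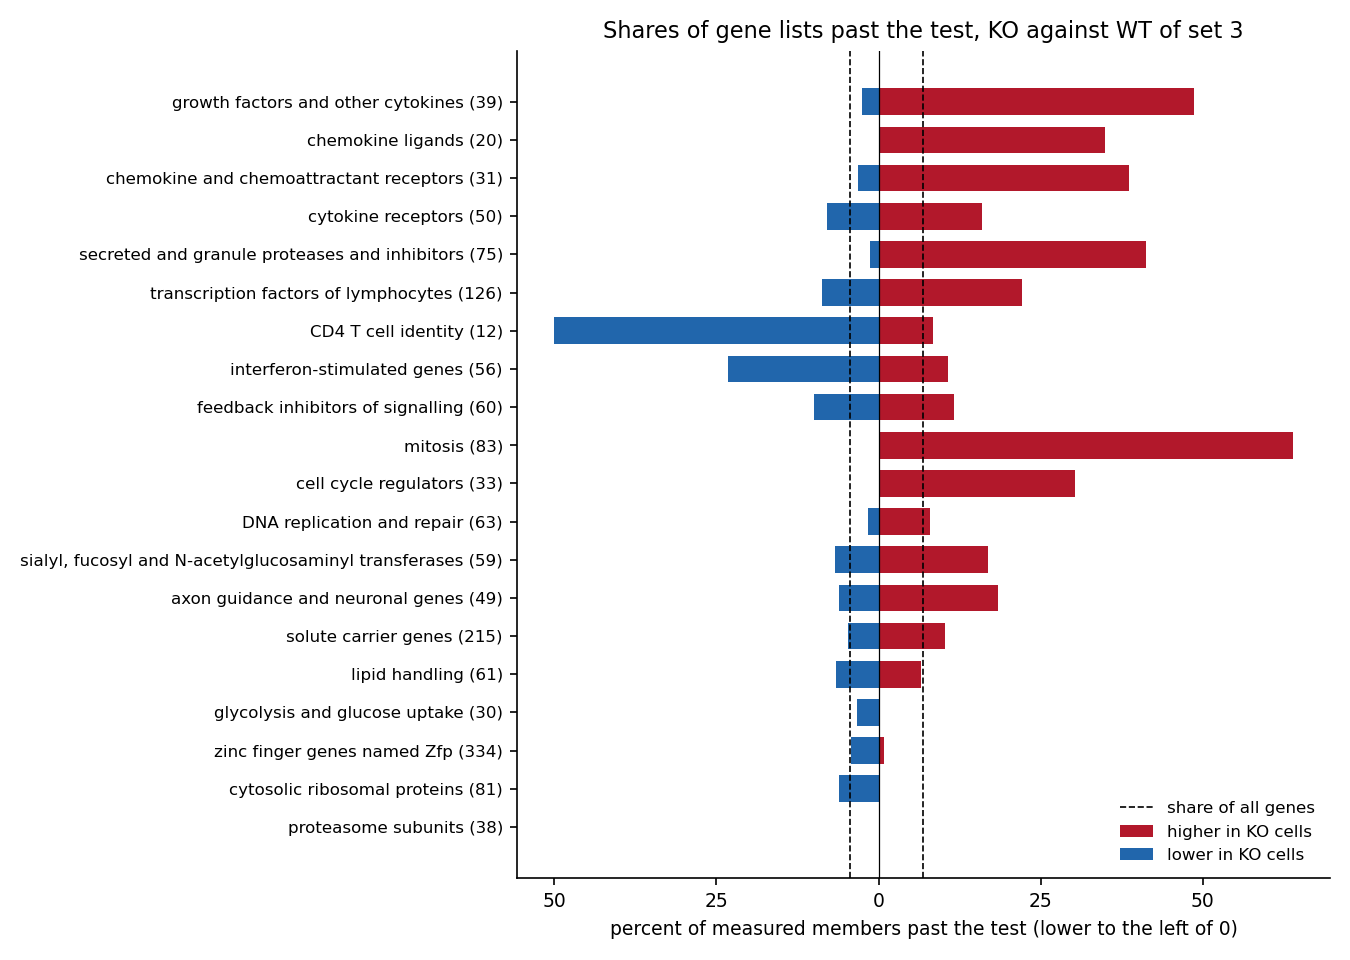
Percent of the measured members of 20 gene lists that passed the test in KO against WT of set 3, with lists chosen by role after their values were seen, those of other cell types not drawn, rises in red to the right and falls in blue to the left of 0, members measured in brackets, and dashed lines at the shares of all genes (6.92% higher and 4.46% lower). Among the lists drawn, mitosis (63.9% higher) and growth factors and cytokines (48.7% higher) reach furthest right and CD4 T cell identity (6 of 12 lower) furthest left, while proteasome subunits show no bar.

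Proteases and their inhibitors rose in large part, with 31 of 75 measured (41.3%) higher, 1 lower and a median difference of 0.96. The set holds the granule proteases of mast cells, given further below. Adam8, a membrane metalloprotease of leukocytes, had 9.89, 8.21 and 9.23 in KO cells, against 6.22, 6.85 and 6.62 in WT cells (difference 2.55 ± 0.36, adjusted p = 0.000298). Cst7 (cystatin F), which restrains the activation of granzymes, had 12.27, 11.98 and 11.99 in KO cells, against 10.61, 11.14 and 10.52 in WT cells (difference 1.32 ± 0.16, adjusted p = 0.000128). Timp3, an inhibitor of metalloproteases, was higher by 2.72 ± 0.59 (adjusted p = 0.00697). KO and WT values did not overlap in Adam8 and Cst7, nor in Timp3. Prss16, a thymic serine protease, was the member that fell, by 2.33 ± 0.34 (adjusted p = 0.000433, but 0.0573 with set 3 alone). The list held 15 rises with set 3 alone.

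Some adhesion and guidance molecules rose, while most did not pass the test. Of 45 measured integrins and adhesion molecules, 9 were higher and 1 was lower, against 6.92% and 4.46% of all genes, with a median of 0.11. The list held 4 rises and no fall with set 3 alone, no fall without KO replicate 1, 2 falls each without KO replicate 3 and WT replicate 2, and 3 without WT replicate 1. Itgae (CD103), the alpha chain that binds E-cadherin on epithelium, had 7.85, 6.02 and 7.16 in KO cells, against 3.79, 4.6 and 4.1 in WT cells (difference 2.85 ± 0.42, adjusted p = 0.000458). Itgav, the alpha V integrin chain, was higher by 0.85 ± 0.15 (adjusted p = 0.00186). Of 49 measured axon guidance and neuronal genes, 9 (18.4%) rose and 3 (6.12%) fell, with a median of 0.28; falls numbered 7 without KO replicate 2 and 1 without WT replicate 1, and 5 rose and 1 fell with set 3 alone. Epha3, an ephrin receptor, had 6.13, 5.79 and 6.18 in KO cells, against 1.6, 1.92 and 1.04 in WT cells (difference 4.52 ± 0.55, adjusted p = 0.000103). Nrp2, a receptor for semaphorins, had 7.56, 5.75 and 7.08 in KO cells, against 3.85, 4.51 and 3.53 in WT cells (difference 2.83 ± 0.54, adjusted p = 0.00288). The genotypes did not overlap in Itgae, Epha3 or Nrp2. Efna5, an ephrin ligand, rose by 4.52 ± 0.41 (adjusted p = 6.09e-06), and Penk, the enkephalin precursor, by 2.22 ± 0.36 (adjusted p = 0.000858); both are taken up with the later sets below. Nsg2, an endosomal protein of neurons, fell by 1.87 ± 0.26 (adjusted p = 0.000334).

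Some enzymes that build surface glycans changed. Of 59 measured sialyl, fucosyl and N-acetylglucosaminyl transferases, 10 (16.9%) rose and 4 (6.78%) fell, with a median of 0.15, and with set 3 alone 6 rose and 1 fell. St6galnac2, which adds sialic acid to O-glycans, had 6.85, 6.61 and 6.61 in KO cells, against 1.99, 2.15 and 2.61 in WT cells (difference 4.44 ± 0.27, adjusted p = 7.51e-08). The table lists this symbol under 2 gene identifiers, and the one with the larger difference is given; under the other it had 3.54, 4.84 and 3.78 in KO cells, against 1.11, 1.05 and 1.47 in WT cells (difference 2.84 ± 0.53, adjusted p = 0.0025). Gcnt2, which branches glycan chains, had 6.95, 5.01 and 6.97 in KO cells, against 3.18, 3.21 and 3.11 in WT cells (difference 3.14 ± 0.41, adjusted p = 0.000188). In both genes the lowest KO value lay above the highest WT value.

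Transport and metabolism changed in single genes more than in whole classes. Of 215 solute carriers, 22 (10.2%) rose and 10 (4.65%) fell, and of 61 lipid genes 4 (6.56%) rose and 4 (6.56%) fell. Of 30 glycolysis genes 1 (3.33%) fell and none rose, and of 38 proteasome subunits none passed in either direction. Over all genes 6.92% rose and 4.46% fell. For the solute carriers, 15 rose and 4 fell without KO replicate 1, 14 and 6 without KO replicate 3, 14 and 4 without WT replicate 1, 21 and 5 without WT replicate 2, 17 and 5 without WT replicate 3, and 6 and 2 with set 3 alone; with centred libraries 22 rose and 6 fell. The lipid genes gave 7 rises without KO replicate 2 and 1 rise and 1 fall with set 3 alone, and of the 6 fits that leave out a library, the glycolysis gene Ldhb kept its call in the one without KO replicate 2. Its adjusted p was 0.16 with set 3 alone and 0.197 for a fold of at least 1.2, and 33.0% of its words occur in other genes, so its value is uncertain. Slc7a2, a carrier of arginine, had 5.18, 4.29 and 4.99 in KO cells, against 1.11, 1.33 and 1.34 in WT cells, near the lowest value (difference 3.56 ± 0.53, adjusted p = 0.000458). Aqp9, a channel for water and glycerol that supports long-lived T cells, had 9.11, 7.81 and 8.39 in KO cells, against 5.47, 5.76 and 6 in WT cells (difference 2.7 ± 0.23, adjusted p = 4.22e-06). Trpm6, a magnesium channel fused to a kinase, had 6.03, 5.46 and 5.76 in KO cells, against 2.66, 2.62 and 2.44 in WT cells (difference 3.17 ± 0.27, adjusted p = 3.71e-06). These 3 transporters were all far above WT. Slc15a3, a lysosomal peptide carrier, was higher by 2.39 ± 0.33 (adjusted p = 0.000298), and Slc25a12, the mitochondrial aspartate-glutamate carrier, by 0.63 ± 0.08 (adjusted p = 0.000185). Mgll, which splits monoacylglycerols, was higher by 1.85 ± 0.2 (adjusted p = 4.15e-05), and Acsl6, which activates long-chain fatty acids, was lower by 1.84 log2 units (SE 0.31, adjusted p = 0.00124).

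Few genes of the broad classes below rose past the test, whereas their falls lay near the 4.46% of all genes. Of 81 cytosolic ribosomal protein genes, 5 (6.17%) fell and none rose, with a median of -0.13 and 2 members with a difference above 0. The falls numbered 8 without KO replicate 2, 1 without KO replicate 1, 2 each without KO replicate 3, WT replicate 2 and WT replicate 3, none without WT replicate 1 and 1 with libraries centred on their median. Quantile normalization changed the difference of Rps7 to -0.07, against -0.18 ± 0.05 on the deposited values (adjusted p = 0.0279), with libraries centred on their median its adjusted p was 0.0577, with set 3 alone it was 0.143, it did not pass for a fold of at least 1.2, and without KO replicate 3 alone among the 6 fits that leave out a library did it stay under 0.05. Words shared with other genes made up 30.5% of those of Rps7, so its value is uncertain. Of 334 zinc finger genes named Zfp, 14 (4.19%) fell and 3 (0.898%) rose, with a median of -0.2 and 63 members with a difference above 0. The 3 rises are a smaller share than the 6.92% of all genes, and the falls numbered 2 to 8 without KO replicate 1 (2), KO replicate 3 (7), WT replicate 1 (4), WT replicate 2 (8) or WT replicate 3 (6), and 7 with centred libraries.

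Further falls came from single genes of varied roles. Sntb1, a syntrophin that anchors membrane proteins, had 5.99, 6.8 and 5.36 in KO cells, against 8.67, 8.09 and 8.13 in WT cells (difference -2.24 ± 0.31, adjusted p = 0.000264). Ninj2, an adhesion protein, had 4.13, 5.29 and 4.84 in KO cells, against 6.82, 6.48 and 6.56 in WT cells (difference -1.87 ± 0.28, adjusted p = 0.000546). Bicdl1, an adaptor of dynein transport, had 10.11, 10.43 and 10.33 in KO cells, against 11.27, 11.03 and 11.35 in WT cells (difference -0.93 ± 0.09, adjusted p = 2e-05). Each KO library lay below each WT library in all 3 genes. Apbb2 was lower by 1.86 log2 units (SE 0.29, adjusted p = 0.000724) and Ephx4, an epoxide hydrolase, by 1.81 (SE 0.33, adjusted p = 0.0024).

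Genes of some other cell types were higher in the KO libraries. Of 7 measured mast cell and basophil markers, 6 (85.7%) rose, beside 6.92% of all genes. Their median difference was 4.28 and their summed level 9.53 to 9.83 in KO libraries against 6.25 to 7.06 in WT libraries. Of 8 genes of saliva and mucosal secretions, 6 (75.0%) rose, with a median of 3.19. Their summed level was 10.42 to 11.46 in KO libraries against 6.82 to 8.02 in WT libraries. Cpa3, the mast cell carboxypeptidase, had 5.41, 7.14 and 6.07 in KO cells, against 2.89, 1.82 and 1.04 in WT cells (difference 4.29 ± 0.56, adjusted p = 0.000188). Mcpt4, a mast cell chymase, had 5.86, 7.19 and 6.94 in KO cells, against 1.11, 1.93 and 2.83 in WT cells (difference 4.71 ± 0.48, adjusted p = 2e-05). For these 2 proteases KO replicate 2 held the highest value, unlike most rises. No mast cell marker was at the lowest value in all libraries of a genotype, and of the salivary genes Pip alone was, in WT cells. Still, 2 WT libraries held Tpsb2 and Cma1 at their lowest value, and 1 held Cpa3 and Mcpt4 there. Of the words of Mcpt4, 12.2% occur in other genes. Dcpp1, a salivary protein, had 7.57, 7.47 and 7.25 in KO cells, against 4.37, 1.05 and 3.38 in WT cells, and 56.4% of its words are shared with other genes. Other marker lists moved less: 1 of 5 macrophage and monocyte, 1 of 5 NK cell, 1 of 2 gamma delta and NKT and 1 of 3 epithelial markers rose, and of 2 CD8, 3 platelet, 2 endothelial and 1 neutrophil markers none passed.

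B cell, dendritic cell and erythroid genes were highest in KO replicate 1. The B cell list (6 of 8 higher, but none without KO replicate 1 and 1 each without WT replicate 1 and WT replicate 2) summed to 11.02, 8.07 and 8.32 in KO libraries, against 6.34, 6.32 and 7.53 in WT libraries. The dendritic cell list (5 of 6 higher, but 1 each without KO replicate 1 and WT replicate 1, 2 without WT replicate 3, and 3 each without KO replicate 3 and WT replicate 2) summed to 13.92, 11.9 and 12.49 in KO libraries, against 10.82, 11.04 and 11.16 in WT libraries. The erythroid list (3 of 5 higher, and 1 each without KO replicate 1 and WT replicate 1) summed to 13.79, 12.35 and 11.6 in KO libraries, against 8.28, 8.71 and 9.26 in WT libraries. Cd79a, a chain of the B cell receptor, had 7.36, 4.56 and 4.52 in KO cells, against 3.1, 2.84 and 2.99 in WT cells, a difference of 2.5 ± 0.63 (adjusted p = 0.017) that was 1.56 without KO replicate 1 (adjusted p = 0.0781) and had an adjusted p of 0.121 with set 3 alone. Words shared with other genes made up 12.2% of those of Cd79a. H2-Aa, a class II antigen-presenting chain, had 11.71, 9.21 and 9.6 in KO cells, against 6.85, 7.56 and 7.82 in WT cells (difference 2.76 ± 0.71, adjusted p = 0.0187, but 0.118 without KO replicate 1, 0.079 without WT replicate 1 and 0.0673 with set 3 alone). Il1b, Il27, Ptgs2, Adam8 and other genes above are also made by cells of these kinds, and the part of such cells in the results was not tested.

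Some genes were at the lowest value throughout 1 genotype. All 3 WT libraries stood at their lowest value in 113 genes, 13 of which passed the test, and all 3 KO libraries did in 68 genes, 1 of which passed. Over all genes, 1427 of 12547 (11.4%) passed. Each WT library held more genes at its lowest value (350, 293 and 277) than each KO library (190, 231 and 176). The part of this in the rises was not tested. Igfbp5, a binding protein of insulin-like growth factors, had 5.36, 4 and 4.65 in KO cells, against the lowest values of 1.11, 1.05 and 1.04 in WT cells (adjusted p = 0.000188). Slc35f3, a putative carrier of thiamine, had 4.17, 3.64 and 3.53 in KO cells, and every WT library held it at the lowest value (adjusted p = 0.00376). The WT values of both genes are a floor, on which the size of these rises depends.

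The KO effect in set 3 was set against that in set 5, with libraries centred on their median because the median difference over all genes in the deposited values was 0.39 in set 5 and 0.42 in set 6. In the limma fit, 4659 genes (37.1%) had an effect in set 3 that differed from that in set 5, 2316 (18.5%) upward and 2343 (18.7%) downward. Of the 1427 genes called in set 3, 825 were among them. The effect in set 3 was above that in set 5 for 447 of the risen genes and below it for 47, and below it for 311 of the fallen genes and above it for 20. Choosing genes by their set 3 test favours differences in these directions. A difference in the same direction from both later sets was found in 2634 genes, 1249 (9.95%) upward and 1385 (11%) downward. Both comparisons use the same libraries of set 3, and sets 5 and 6 may share cultures. The comparison with set 6 is therefore not an independent check.

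Among the genes that differed most from both later sets were stress and tissue genes. Ubd, a ubiquitin-like modifier, had 8.38, 6.95 and 7.34 in KO cells, against 4.01, 4.71 and 5.16 in WT cells (difference 2.93 ± 0.68, adjusted p = 0.0105, but 0.0666 without KO replicate 1 and 0.0506 without WT replicate 1), and its effect in set 3 exceeded that in set 5 by 8.41. Nupr1, a stress-induced chromatin protein, had 5.94, 4.42 and 5.42 in KO cells, against 2.36, 1.05 and 1.04 in WT cells, and its effect exceeded that in set 5 by 6.44. For both, the centred effect in set 5 was negative. Other genes had a smaller effect in set 3 than later. Efna5 had 8.35, 9.01 and 9.47 in KO cells, against 4.44, 5.03 and 3.78 in WT cells, and its effect in set 3 was below that in set 5 by 3.92 log2 units. Penk had 10.57, 10.46 and 9.89 in KO cells, against 8.05, 8.6 and 7.6 in WT cells, and its effect was below that in set 5 by 3.91. Bmp7 showed the same order with a gap of 1.47. Tmie, a membrane protein of hair cells, did not pass the test in set 3 (difference 0.05 ± 0.57, adjusted p = 0.962) and was 4.64 below its effect in set 5.

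**Figure D5:**
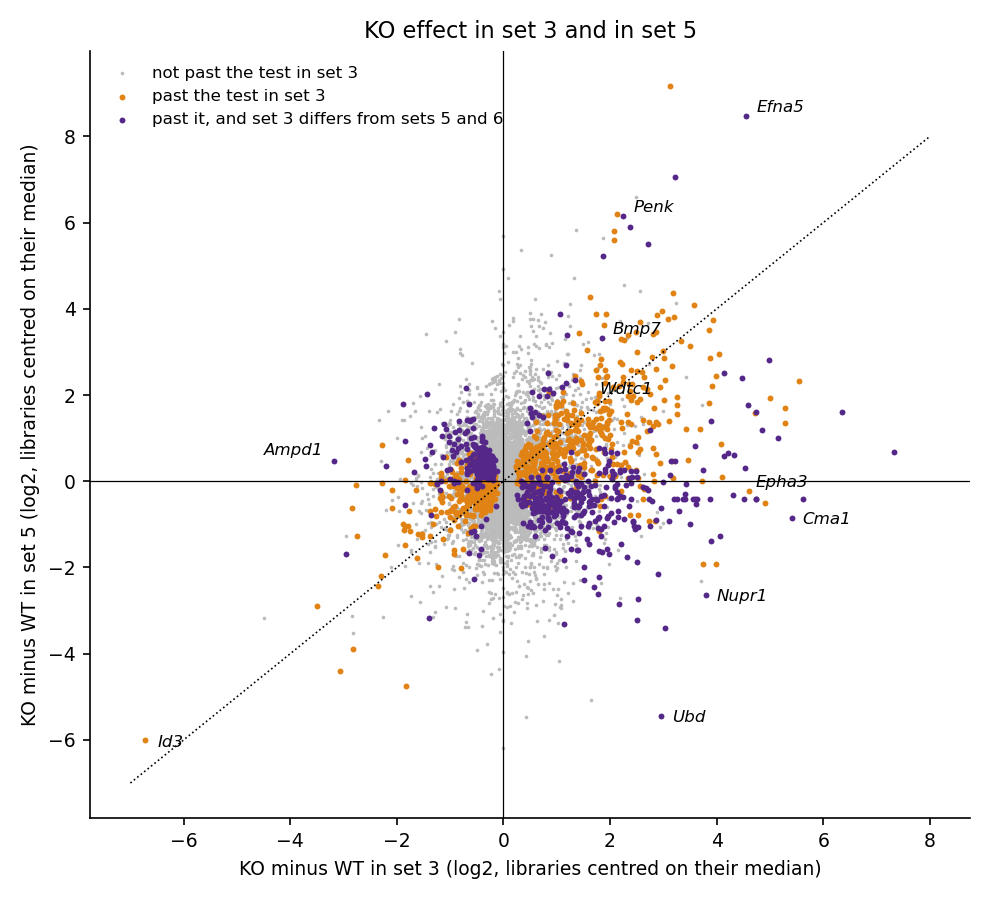
KO minus WT difference in set 5 (vertical axis) against that in set 3 (horizontal axis), in log2 with libraries centred on their median, 1 point a gene, and a dotted line of equal effects. Orange and purple points passed the test in set 3; purple ones also differ from the effects of sets 5 and 6 in 1 direction, and Cma1, Nupr1 and Ubd lie right of and below the line while Efna5 and Penk lie above it.

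Against set 6 in place of set 5 the counts were 1425 upward and 1597 downward, and on the deposited values, without centring, 856 upward and 5420 downward, so the split depends on the scaling. The authors' deposited table calls 491 genes of set 3, 409 (3.26%) higher and 82 (0.654%) lower, and all 491 are among the 1427 called here; the limma test against a minimum fold of 1.2 called 492 genes, 491 of them shared with the authors' deposited table. In the authors' deposited table the fold changes equal the differences of the group means of the deposited values to within 8.38e-14.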

How the data were processed

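The data are polyA RNA-seq libraries of activated CD4 T cells, 3 KO and 3 WT libraries in each of sets 3, 5 and 6. RNA was extracted with an RNeasy kit and turned into strand-specific libraries with a NEBNext Ultra II kit, per the labels' protocols. The submitters' processing notes name Salmon 1.9.0, edgeR, limma and GRCm39, without their roles. The authors deposited a table of log2 values for 12547 genes in 18 libraries, whose scaling is not stated per the file headers; within a group, 97.0% to 98.0% of the sorted values of the libraries of set 3 are equal. What this scaling does to the spread within groups, and so to the p-values, was not tested. The authors also deposited their contrasts, with log2 fold changes, p-values and a moderated statistic (a score), of which only the fold changes and adjusted p-values were used.

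A limma 3.58.1 model (R 4.3.3) was fitted to the deposited log2 values with 6 group means over all 18 libraries, moderated with a trend of variance with level, and p-values were adjusted by Benjamini-Hochberg over all 12547 genes. Genes needed a value of 0 or more in 3 libraries, which all passed. An exact test of 3 against 3 libraries cannot give a p below 0.1, so single genes rest on the pooled spread. Effects of sets 3 and 5 were compared in the same model after centring each library on its median. The fit was tested on simulated data with independent normal noise, which the deposited values need not follow. It recovered 71% of changes of log2 size 1 and 83% of those of size 2, with 4.3% false among the calls. These shares vary between random draws. Read depth is unknown, so no counting interval is given. Shared sequence was counted as words of 31 bases in the GENCODE M21 transcripts, an annotation of an earlier build than GRCm39, and gene order and promoters came from RefSeq (GRCm38.p6) by symbol.

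The text describes, by role, a part of the genes chosen by rule (largest rises and falls, highest levels, smallest p, up to 4 called members per list and direction, genes at the lowest value in 1 genotype, and the largest differences from sets 5 and 6). All of these rules but the last took only called genes whose KO and WT values do not overlap. Other list members, the genes near Id3 and Gm10282 were named after their values were seen. Members and lists were chosen with earlier results of these data known. Alternatives were another fold threshold, variance model, filter, scaling, pseudocount of 1, replicate block, sets in the fit, and each library left out.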

Additional observations from a re-analysis of the deposited data

Results flagged for a closer look

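The KO effect of the genes below differed between set 3 and set 5 by limma's test of the difference (adjusted p under 0.05), and differed in the same direction from set 6. The comparison with set 6 uses the same libraries of set 3 and is not an independent check. Each value is the KO minus WT difference in set 3 less that in set 5, in log2 units on libraries centred on their median. A positive value means that the KO minus WT difference was higher in set 3 than in set 5, whatever the sign of each. Such differences were found upward in 1249 (9.95%) and downward in 1385 (11%) of all genes.

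Secreted factors and receptors above set 5 had values of 4.5 for Cxcr6, 3.99 for Il27, 3.82 for Il1b, 3.49 for Csf2rb2, 3.24 for Il1rl1, 3.15 for Ccl5, 2.63 for Cysltr2, 2.23 for Hbegf, 1.99 for Cxcr3 and 1.34 for Fasl. Below set 5 the values were -2 for Gpr83, -1.47 for Bmp7, -0.92 for Il6ra and -0.84 for Il16. Cell cycle genes and inhibitors above set 5 had values of 5.27 for Cdkn2a, 1.88 for Cdkn1a, 1.49 for Mki67, 1.43 for Ccne1, 0.93 for Cdkn2c and 0.91 for E2f2. Transcription factors and signalling genes above set 5 had values of 2.15 for Rora, 1.9 for Runx2 and 0.79 for Thy1. Below set 5 the values were -2.79 for Epas1, -1.88 for Trib2, -1.1 for Tnfaip3, -1.01 for Cd4, -0.97 for Cd247 and -0.47 for Cd52. Interferon-inducible genes and Phf11b had a value above set 5 of 1.13 for Ifi27. Below set 5 the values were -2.05 for Ifi47, -2.03 for Gbp6, -1.2 for Gbp2, -1.19 for Gbp5 and -0.57 for Phf11b. Enzymes and transporters above set 5 had values of 3.01 for Ptgs2, 2.92 for Aqp9, 2.76 for Slc7a2, 2.07 for St6galnac2, 1.56 for Entpd1, 1.12 for Mgll and 0.54 for Slc25a12. Below set 5 the values were -3.63 for Ampd1 and -0.35 for Fundc2. Granzymes had 2.21 for Gzmb and -3.86 for Gzma. Genes of guidance, adhesion and other roles above set 5 had values of 4.24 for Epha3, 3.79 for Timp3 and 0.63 for Itgav. Below set 5 the values were -3.92 for Efna5, -3.91 for Penk, -1.3 for Apbb2, -1.27 for Sfn, -1 for Cst7 and -0.89 for Bicdl1. The remaining genes above set 5 had values of 8.41 for Ubd, 6.64 for Sprr2a2, 6.44 for Nupr1, 6.27 for Cma1, 6.03 for Tpsb2, 5.14 for Mcpt4, 4.93 for Dcpp1, 4.75 for Smr3a, 4.16 for Bpifa2, 4.05 for Igfbp5 and 3.7 for Cpa3. Below set 5 the value was -4.64 for Tmie. For 12 of the 67 genes (Bpifa2, Cma1, Dcpp1, Epha3, Igfbp5, Il1b, Il27, Mcpt4, Slc7a2, Smr3a, Sprr2a2 and Tpsb2), all 3 libraries of at least 1 genotype stood at their lowest value in set 3 or set 5, so the size of the value depends on that floor and on the centring.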

How the results depend on the processing

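Counts of KO against WT in set 3 moved most with the size of difference asked for and with the libraries used. Of 868 rises and 559 falls, 519 and 88 had a difference of 1 or more, 410 and 82 passed limma's test against a minimum fold of 1.2, and 265 and 114 passed with set 3 alone, a fit with fewer residual degrees of freedom; 348 of these calls are among the 1427. With 1 library left out, rises numbered 454 to 1098 and falls 212 to 816. For set 3 against set 5, with 2316 upward and 2343 downward differences, a size of 1 or more gave 864 and 783, the minimum fold 1137 and 1133, the use of set 6 for set 5 gave 1425 and 1597, and the deposited values without centring 856 and 5420, beside median effects of 0.39 in set 5 and 0.42 in set 6; leaving out 1 library gave 1932 to 2438 upward and 2000 to 2441 downward. Of the 121 genes named in the text as called, 23 lost their call with set 3 alone, 8 against the minimum fold, 8 without KO replicate 1, 5 without WT replicate 1, 3 each without WT replicates 2 and 3, 2 without KO replicate 3 and 1 without KO replicate 2, and none changed direction. Median centring, quantile normalization, no variance trend and the replicate block each ended the calls of 2, Tcf12 among them. A pseudocount of 1, library weights, robust moderation and the filters ended none of these calls; a mean log2 value of 6 or more kept 87 of the genes. Replicate numbers did not pair the libraries: correlations of deviations were -0.08, -0.03 and 0.18 for equal numbers and -0.14 to 0.18 for unequal ones. With a replicate block, 763 genes rose and 553 fell in set 3, and 2324 and 2346 differed upward and downward from set 5. Depth is unknown, so what it limits cannot be stated.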
